A study of Mus musculus with 6 samples.

Results

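The genes described here are 27 members of cholesterol synthesis and of its control by SREBP2, of 13454 genes listed in the deposited table. They were chosen by symbol from knowledge of the pathway, with earlier results of these data known. They comprise 19 enzymes from acetoacetyl-CoA to cholesterol, 4 genes of the SREBP2 control circuit and 4 genes of sterol transport and storage. Msmo1 is listed under its older symbol Sc4mol. RNA was measured in 6 libraries of lymphatic endothelial cells, which line lymphatic vessels. The cells came from transplanted B16-OVA-VEGFC tumours, a mouse melanoma line described as lymphangiogenic, and every group carried this tumour. In 3 libraries the host mice lacked Ch25h in their lymphatic vessels (LEC-Ch25h KO, here Ch25h KO), and in 3 they were littermate controls (LEC-CH25h WT, here WT). The titles of the Ch25h KO libraries also carry the letters HE, which the labels do not explain. The sources used here name neither what drives the deletion nor the age of the mice nor whether each library came from a separate animal, so the p-values reflect no more than how far these libraries differ among themselves, possibly for technical reasons.

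Cells build cholesterol from acetyl-CoA by way of mevalonate, the isoprenoid diphosphates, squalene and a series of sterol ring intermediates. SREBP2, encoded by Srebf2, is held in the endoplasmic reticulum by SCAP and the INSIG proteins when sterols are plentiful, and when sterols run low it moves to the Golgi, is cleaved and turns on nearly every enzyme of the route. Ch25h makes 25-hydroxycholesterol, which binds INSIG proteins and holds SREBP2 back, so the comparison asks how the transcripts of this route stand in lymphatic endothelium without the enzyme.

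Levels are CPM as deposited, reads on a per-unit-depth scale with a further scaling factor per library whose method the sources used here do not state, and where 3 values of a group are given they follow the order of its libraries 1, 2 and 3. The libraries held between 36556824 and 46165273 reads on the listed genes. Ch25h itself read 82.9, 88.8 and 106 CPM in the WT group. In the Ch25h KO group it read 0, 0.0232 and 2.95 CPM, so library 3 kept the most of it, 117 reads. limma called it lower (adjusted p = 0.00365), while edgeR and DESeq2 on recovered reads did not (adjusted p = 0.839 and 0.208). Of 9 listed lymphatic endothelial markers 8 were in the table, each present in every library. Their summed level was 7301 to 9451 CPM in WT and 6487 to 9146 CPM in Ch25h KO. In Ch25h KO 3 of them had a higher and 5 a lower mean. Among markers of other cells, the melanoma list (7 of 7 in the table) summed to 199, 63.7 and 40.9 CPM for WT against 249.7, 152.8 and 101 CPM for Ch25h KO, with no marker at 0. The leukocyte list (9 of 10 in the table) summed to 26.3 to 331 CPM in WT and 36.2 to 147.9 CPM in Ch25h KO, with Ptprc at 0 in WT library 2 and Ch25h KO library 1 and Csf1r at 0 in Ch25h KO library 1. The 5 fibroblast markers in the table summed to 66.8 to 352 CPM and 76.6 to 200.2 CPM in the same order, with none at 0. The 4 blood endothelial markers summed to 1524 to 2535 CPM in WT and 1115 to 1344 CPM in Ch25h KO, ranges that did not overlap, nearly all of it Plvap, with Flt1 between 0.353 and 4.74 CPM and Sox17 at 0 in Ch25h KO library 1. Of the mural markers 2 were in the table, Pdgfrb and Des, summing to 2.52 CPM or less in every library. Both were at 0 in Ch25h KO library 3, and in WT library 2 Des was at 0 and Pdgfrb at 0.0238 CPM. The part of any of these cells in the sterol gene levels was not tested. In RNA from sorted cells in bulk, fewer cells of a type and less RNA per cell cannot be told apart.

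No cholesterol gene passed the test between the genotypes, and most had a slightly higher mean without Ch25h. All 27 passed the filter of a mean of at least 1 CPM and were tested among 11980 genes with limma on log2(CPM + 1), with Benjamini-Hochberg adjustment over all of them and a threshold of 0.05. The count called was 0 higher, where 0% of all genes were called higher, and 0 lower, where 0.00835% (Ch25h alone) were called lower. At an unadjusted p under 0.05 there were 2 members, Sqle and Fdps, both higher, beside 5.41% of all genes in either direction and 1.62% higher. On reads recovered from the deposited values edgeR called 0 members, as it called 0% of all genes, and had 2 members at an unadjusted p under 0.05, beside 5.46% of all genes. DESeq2 likewise called 0 members, with 2 at an unadjusted p under 0.05 beside 6.27% of all genes, where it called 0.0418% of all genes higher and 0.0501% lower. Ch25h KO had the higher mean for 20 members and the lower for 7, where 49.6% of all genes were higher. Over the members the log2 fold change had a median of 0.14, where all genes tested had one of -0.0021, and single members lay between -0.21 (Scap) and 0.59 (Hsd17b7). The groups did not overlap in 2 members, Sqle and Mvd, both higher in Ch25h KO, where 4.38% of all genes were separated in that direction, and 0 members were separated in the other, where 5.78% of all genes were.

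**Figure D1:**
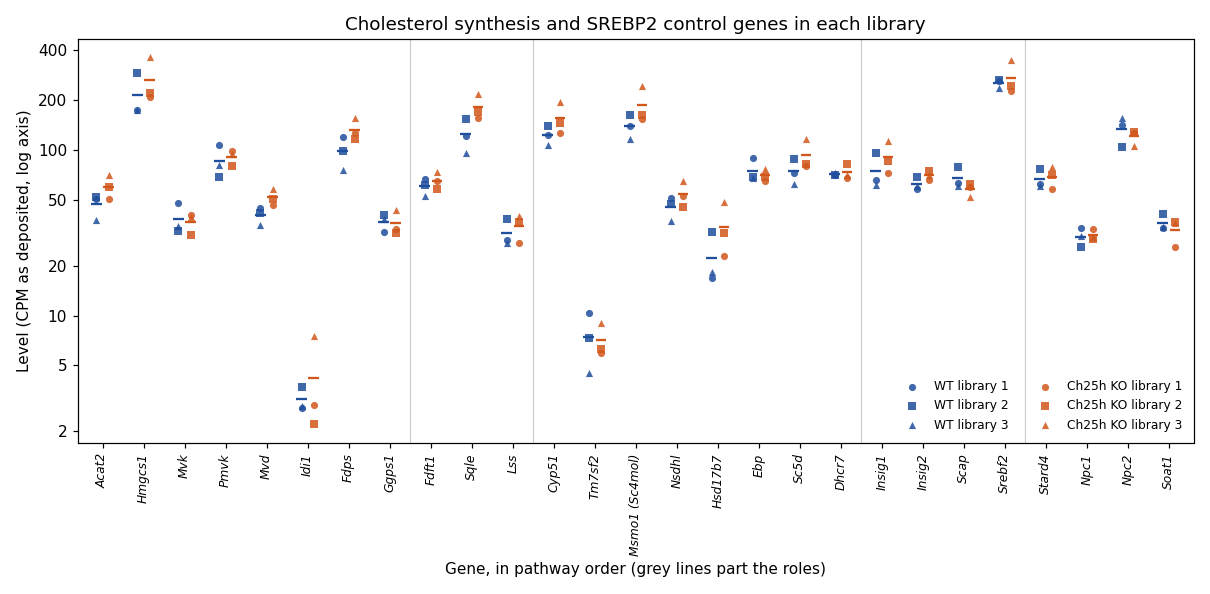
Level of each of the 27 genes in each library, in CPM as deposited on a log axis, in pathway order; points are libraries, short bars are group means of 3 libraries, and grey lines part the mevalonate, squalene, sterol ring, SREBP control and transport groups. Ch25h KO library 3 (orange triangles) holds the highest value of 17 genes.

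Ch25h KO library 3 held the highest value of 17 of the 27 members (63.0%), against 17.2% of all genes tested, and WT library 3 held the lowest value of 12 (44.4%), against 16.8%. In 11 members both were true (40.7%, against 4.77% of all genes). The transcripts of the 19 synthesis enzymes summed to 1374, 1501 and 1144 CPM for WT against 1429, 1482 and 1993 CPM for Ch25h KO. Ch25h KO libraries 1 and 2 thus lay within the range of the WT libraries, and Ch25h KO library 3 lay above it. Within WT, library 2 was highest in 16 of 27 members (59.3%, against 34.3% of all genes). Within Ch25h KO, library 3 was highest in 19 (70.4%, against 33.9% of all genes). The range within the WT libraries exceeded the difference between the group means in 24 members (88.9%, against 86.6% of all genes), and the range within the Ch25h KO libraries did so in all 27 (against 83.4% of all genes). From the lowest to the highest library the members spanned 1.58-fold at the median, and all genes tested 1.62-fold. Without library 3 of both groups the median log2 fold change of the members was -0.013 and 13 of 27 had a higher mean. Leaving out the libraries that held these highest and lowest values lowers the fold change of those members by construction. It is therefore no independent check. Of the melanoma list, Ch25h KO library 3 held the lowest sum within its group, as WT library 3 did within WT. The fibroblast list instead had its highest Ch25h KO sum in library 3 (76.6, 137.2 and 200.2 CPM), where Dcn alone read 126.6 CPM. The leukocyte list had its highest Ch25h KO sum in library 2. A part of these cells in the library pattern of the members was not tested.

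**Figure D2:**
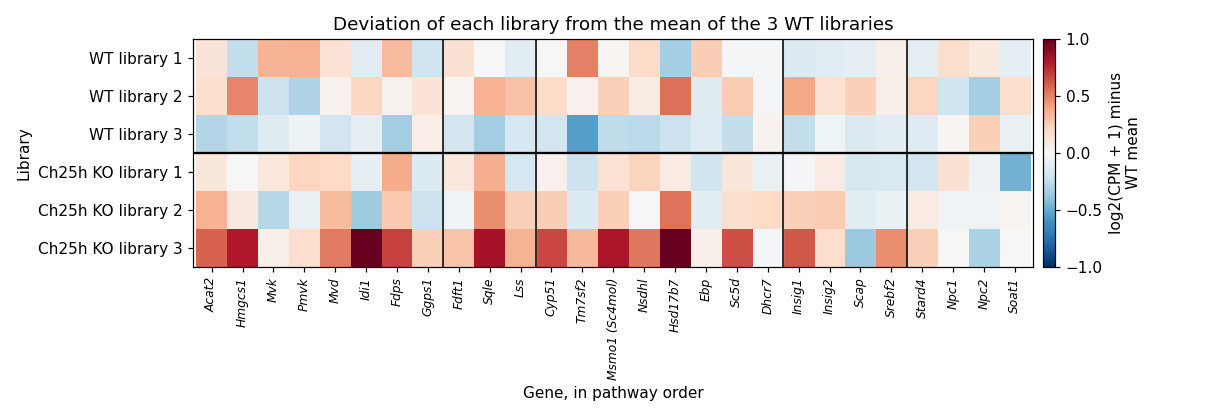
Each cell is the log2(CPM + 1) value of a gene in a library minus the mean of the 3 WT libraries, on a colour scale from -1 to 1; rows are libraries, columns are genes in pathway order, and vertical lines part the roles. Ch25h KO library 3 is red across most enzymes and WT library 3 mostly blue, and values beyond the scale take its end colour, while Dhcr7, Npc1 and Ebp change little along their columns.

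Promoter sequence is shown for 3 members. SREBP2 binds sterol response elements and works beside NF-Y, which binds CCAAT boxes, and Sp1, which binds GGGCGG boxes. RefSeq promoter windows on GRCm38.p6 (mm10), from 250 bases before to 50 after each start, were matched for 22 of the 27 members, with 28 windows. Fdps, Fdft1, Sqle, Npc1 and Stard4 had no window and were not searched. Both TCACNCCAC and TCACNCCAT, forms of the element in which N is any base, were searched on both strands with the boxes. A form was present in Hmgcs1, Msmo1 and Srebf2, which is 13.6% of the 22 genes, against 1.97% of 8940 genes tested and 2.27% of all genes with a window. CCAAT was present in 20 of the 22 members (90.9%, against 43.2% of genes tested and 41.1% of all) and GGGCGG in 20 (90.9%, against 70.5% and 38.2%). Bases ahead of the annotated gene are printed 5′ to 3′ on the gene's strand for Hmgcs1 and Srebf2, which hold a form, and for Hsd17b7, which holds neither and had the largest log2 fold change of the members. Capitals mark the searched motifs, where ATTGG and CCGCCC are CCAAT and GGGCGG on the other strand.
Hmgcs1 (chr13:119690151-119690350, plus strand): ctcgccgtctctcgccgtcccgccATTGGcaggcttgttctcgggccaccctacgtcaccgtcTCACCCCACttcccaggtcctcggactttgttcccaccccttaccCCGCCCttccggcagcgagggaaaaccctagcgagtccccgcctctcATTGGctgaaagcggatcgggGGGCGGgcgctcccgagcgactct
Srebf2 (chr15:82147069-82147180, plus strand): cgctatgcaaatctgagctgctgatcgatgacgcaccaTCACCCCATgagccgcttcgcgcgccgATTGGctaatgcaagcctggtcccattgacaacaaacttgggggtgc
Hsd17b7 (chr1:169969242-169969405, minus strand): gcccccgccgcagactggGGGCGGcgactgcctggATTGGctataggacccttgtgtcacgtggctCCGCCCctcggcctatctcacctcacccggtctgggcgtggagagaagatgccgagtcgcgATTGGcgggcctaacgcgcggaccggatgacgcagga
The element form begins 137 bases before the RefSeq start in Hmgcs1, 177 in Msmo1 and 162 in Srebf2, and the nearest CCAAT box begins at 176, 160 and 135 bases. These matches describe letters in a window of fixed length. Genes without a match may hold other forms of the element.

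The mevalonate steps turn acetoacetyl-CoA into isoprenoid diphosphates. Of their 8 genes, 6 had a higher mean in Ch25h KO, with a median log2 fold change of 0.25, and none passed. Hmgcs1, which encodes cytosolic HMG-CoA synthase (chr13:119690379-119708260), read 175, 292 and 176 CPM for WT against 208, 222 and 364 CPM for Ch25h KO. Its groups overlapped, since WT library 2 lay above Ch25h KO libraries 1 and 2. Its log2 fold change was 0.30 ± 0.26 (SE; limma, adjusted p = 0.973), which became 0.046 without Ch25h KO library 3 and -0.075 once both libraries numbered 3 were left out. About 11.6% of the 50-base words of Hmgcs1 transcripts occur in transcripts of other genes, Gm48342 among them. Hmgcs1, Msmo1 and Srebf2, the 3 members with an element form in the window, were all highest in Ch25h KO library 3. So were 17 of all 27 members (63.0%), and a link to the element was not tested.

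Fdps encodes farnesyl diphosphate synthase, at the branch toward sterols and prenyl groups (chr3:89093588-89101959). It read 121, 99.3 and 75.9 CPM for WT against 126, 117 and 157 CPM for Ch25h KO. Only WT library 1 reached into the Ch25h KO range. The log2 fold change was 0.44 ± 0.19 (SE; limma, adjusted p = 0.913; exact permutation p = 0.2, two-sided), 0.27 without WT library 3 and 0.15 without both libraries numbered 3. About 26.2% of the 50-base words of Fdps transcripts occur in transcripts of other genes, so some of its reads may be uncertain. Mvd, the mevalonate diphosphate decarboxylase (chr8:122433601-122443422), read 44.7, 41.6 and 35.2 CPM for WT against 46.4, 50.5 and 58.3 CPM for Ch25h KO. Every Ch25h KO value lay above every WT value, although WT library 1 and Ch25h KO library 1 nearly met. Its log2 fold change was 0.35 ± 0.16 (SE; limma, adjusted p = 0.941), with an exact permutation p = 0.1, two-sided, the smallest that 3 libraries against 3 can give, and it was 0.16 without both libraries numbered 3. Acat2, the cytosolic thiolase that opens the route, read 50.8, 52.3 and 37.7 CPM for WT against 50.4, 59.4 and 70.2 CPM for Ch25h KO, with Ch25h KO library 1 inside the WT range (log2 fold change 0.35 ± 0.19 SE; limma, adjusted p = 0.941). Leaving out WT library 3 gave 0.20 for Acat2, leaving out Ch25h KO library 3 gave 0.23, and leaving out both gave 0.085. Acat2 shares 39.1% of such words with other genes, Acat3 and Tcp1 among them.

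Pmvk and Mvk, the kinases that phosphorylate mevalonate in turn, kept another library order. Pmvk read 108, 68.5 and 81.6 CPM for WT against 98.1, 80.0 and 95.2 CPM for Ch25h KO, with WT library 1 highest. Mvk read 48.0, 32.4 and 34.5 CPM for WT against 40.6, 30.8 and 39.4 CPM for Ch25h KO, again with WT library 1 highest. Both are enzymes of the same route as Hmgcs1, yet WT library 2, the highest WT library for Hmgcs1, was the lowest WT library for each of them. Ggps1, which makes geranylgeranyl diphosphate for protein prenylation, ranged from 31.6 to 43.5 CPM over the 6 libraries, and averaged 36.9 ± 4.52 CPM for WT and 36.2 ± 6.39 CPM for Ch25h KO (SD, n = 3). Idi1, the isopentenyl diphosphate isomerase, was the lowest member, reading 2.78, 3.72 and 2.85 CPM for WT against 2.87, 2.21 and 7.49 CPM for Ch25h KO, where library 3 alone stood apart. Its 95 to 297 reads per library are few beside the other members, and 25.3% of the 50-base words of its annotated transcripts occur in transcripts of other genes.

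Squalene synthesis and closure of the first sterol ring rest on Fdft1, Sqle and Lss, and all 3 had a higher mean in Ch25h KO. Sqle, which encodes squalene epoxidase, a rate-limiting and strongly sterol-controlled step (chr15:59315077-59331192), read 122, 155 and 95.6 CPM for WT against 157, 169 and 218 CPM for Ch25h KO. The groups did not overlap, although WT library 2 and Ch25h KO library 1 nearly met. On the log2 scale Sqle differed by 0.55 ± 0.20 (SE), which had the smallest p of any member, ranked 278 of 11980 genes, and did not pass (limma, adjusted p = 0.836; exact permutation p = 0.1). It was 0.24 without both libraries numbered 3. Fdft1, squalene synthase, read 67.0, 61.2 and 52.7 CPM for WT against 64.6, 58.4 and 73.3 CPM for Ch25h KO, with wide overlap (log2 fold change 0.12 ± 0.16 SE; limma, adjusted p = 0.976). Lss, lanosterol synthase, read 28.7, 38.2 and 27.3 CPM for WT against 27.6, 36.9 and 39.7 CPM for Ch25h KO, where library 1 matched the lower WT values (log2 fold change 0.14 ± 0.20 SE; limma, adjusted p = 0.978). Without Ch25h KO library 3 the log2 fold change was 0.034 for Fdft1 and 0.037 for Lss, and without WT library 3 it was 0.025 and 0.050. Exons of Fdft1 overlap those of Ctsb on the other strand, and the library kit does not mark strand, so their reads cannot be told apart there.

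The sterol ring enzymes turn lanosterol into cholesterol by removing methyl groups and shifting double bonds. Of 8 genes, 6 had a higher mean in Ch25h KO, with a median log2 fold change of 0.28. Msmo1, the methylsterol monooxygenase, read 140.2, 163 and 116 CPM for WT against 153, 163 and 245 CPM for Ch25h KO. WT library 2 and Ch25h KO library 2 stood at the same rounded level, and the log2 fold change was 0.40 ± 0.20 (SE; limma, adjusted p = 0.941). Cyp51, the lanosterol demethylase, read 124, 140 and 107 CPM for WT against 127, 146 and 196 CPM for Ch25h KO, so Ch25h KO library 1 lay within the WT range (0.32 ± 0.18 SE on the log2 scale; limma, adjusted p = 0.955). Hsd17b7, the sterol ketone reductase of the route, read 16.8, 31.9 and 18.3 CPM for WT against 22.7, 31.6 and 48.6 CPM for Ch25h KO. It had the largest log2 fold change of the members, 0.59 ± 0.31 (SE; limma, adjusted p = 0.941), and spanned 2.89-fold from the lowest to the highest library, while WT library 2 matched Ch25h KO library 2. Without Ch25h KO library 3 the log2 fold change was 0.19 for Msmo1, 0.14 for Cyp51 and 0.31 for Hsd17b7, and without both libraries numbered 3 it was 0.064, 0.045 and 0.20. All 3 genes showed the order seen in Hmgcs1, with library 2 highest in WT and library 3 highest in Ch25h KO.

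Sc5d, a sterol desaturase, followed the same order, reading 73.0, 87.9 and 62.1 CPM for WT against 80.1, 82.6 and 116 CPM for Ch25h KO. Nsdhl, the dehydrogenase that acts after Msmo1, read 51.5, 47.3 and 37.1 CPM for WT against 52.5, 45.1 and 65.1 CPM for Ch25h KO. WT library 3 was lowest and Ch25h KO library 3 highest for each. Dhcr7, which completes cholesterol from its direct precursor, varied least of all members, 1.21-fold from the lowest to the highest library, averaging 71.3 ± 1.38 CPM for WT and 73.5 ± 7.44 CPM for Ch25h KO (SD, n = 3). Ebp, the sterol isomerase, ranged from 64.8 to 88.9 CPM with WT library 1 highest, and its log2 fold change was -0.089. Tm7sf2, a sterol reductase whose activity is shared with Lbr, was low, reading 10.4, 7.27 and 4.47 CPM for WT against 5.96, 6.29 and 9.05 CPM for Ch25h KO, and spanned 2.32-fold with no genotype order. About 9.87% of the 50-base words of Tm7sf2 transcripts are shared with Vps51, which overlaps it on the same strand, so some of its reads may be uncertain.

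**Figure D3:**
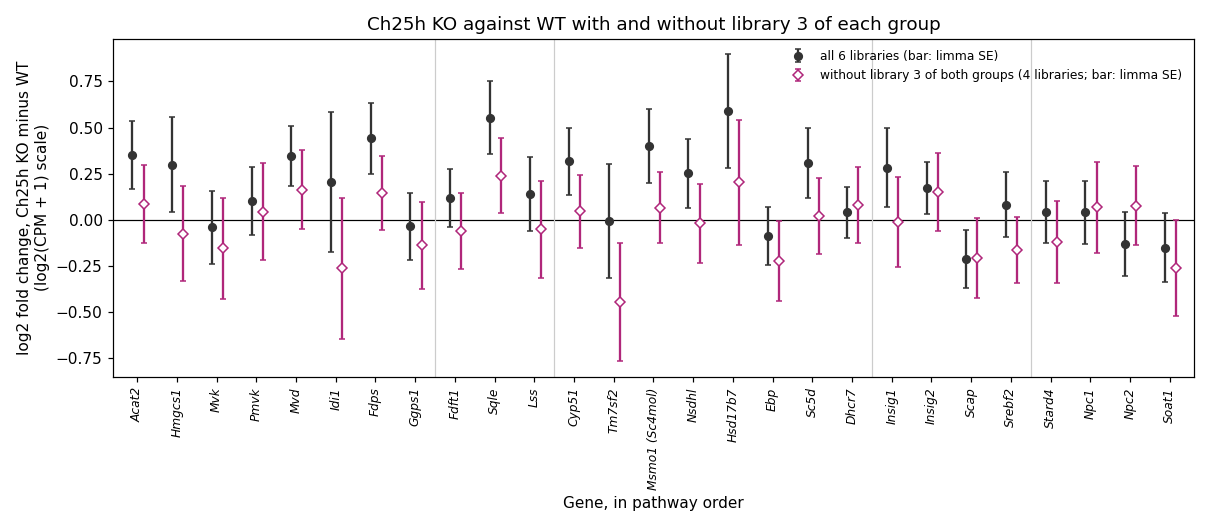
Log2 fold change of each gene, Ch25h KO minus WT, on the log2(CPM + 1) scale, from all 6 libraries (filled circles) and without library 3 of both groups (open diamonds), with bars for limma's SE. With all libraries Sqle stands at 0.55 and Hsd17b7 at 0.59, and without both libraries at 0.24 and 0.20. The libraries left out held the highest or lowest value of many genes, which by itself lowers the fold change of those genes.

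Of the 4 control genes, 3 had a higher and 1 a lower mean in Ch25h KO. Srebf2 read 263, 265 and 236 CPM for WT against 228, 243 and 350.4 CPM for Ch25h KO (chr15:82147181-82205379). Its WT libraries lay close together, and its Ch25h KO libraries lay both below and above them. The log2 fold change was 0.081 ± 0.18 (SE; limma, adjusted p = 0.985), and it was -0.11 when Ch25h KO library 3 was left out. Scap, which encodes the escort of SREBP2, was lower on average in Ch25h KO, reading 62.9, 79.5 and 60.5 CPM for WT against 60.1, 62.0 and 51.8 CPM for Ch25h KO. It was the single control gene that was lowest in Ch25h KO library 3, the library with the highest Srebf2 (log2 fold change -0.21 ± 0.16 SE; limma, adjusted p = 0.973), and the difference was -0.092 without WT library 2. About 9.96% of the 50-base words of Scap transcripts are shared with the overlapping antisense gene 5830462I19Rik, whose reads the kit cannot tell apart.

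The INSIG genes hold SCAP in place, and Insig1 is itself a classical SREBP2 target while Insig2 is known for weaker sterol control. Insig1 read 66.1, 95.9 and 61.3 CPM for WT against 72.3, 86.2 and 113 CPM for Ch25h KO. It shared the order of Hmgcs1, Msmo1 and Sc5d, with library 2 highest in WT and library 3 highest in Ch25h KO, and spanned 1.84-fold. Insig2 read 57.8, 68.7 and 60.5 CPM for WT against 65.8, 74.5 and 70.4 CPM for Ch25h KO, spanned 1.29-fold and was not highest in Ch25h KO library 3. Neither passed the test, with log2 fold changes of 0.28 ± 0.21 for Insig1 and 0.17 ± 0.14 for Insig2 (SE; limma, adjusted p = 0.973 for each). Without Ch25h KO library 3 the value for Insig1 was 0.11.

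Of the 4 genes of sterol transport and storage, 2 had a higher and 2 a lower mean in Ch25h KO, with a median log2 fold change of -0.047. Stard4, a cytosolic sterol carrier and SREBP2 target, read 62.6, 77.3 and 60.8 CPM for WT against 58.2, 70.3 and 78.7 CPM for Ch25h KO. It had the order of Insig1 at a smaller span of 1.35-fold (log2 fold change 0.043 ± 0.17 SE; limma, adjusted p = 0.989). Npc2, a lysosomal cholesterol binding protein, read 141, 105 and 156 CPM for WT against 128, 129 and 106 CPM for Ch25h KO, so WT library 3, the lowest for most enzymes, was here the highest (log2 fold change -0.13 ± 0.17 SE; limma, adjusted p = 0.973; -0.015 without that library). Npc1, its membrane partner in lysosomal export, ranged from 25.9 to 33.8 CPM over the 6 libraries. Soat1, which esterifies cholesterol for storage, read 33.8, 41.1 and 34.5 CPM for WT against 25.9, 37.0 and 36.1 CPM for Ch25h KO, with Ch25h KO library 1 lowest (log2 fold change -0.15 ± 0.19 SE; limma, adjusted p = 0.973).

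Per kilobase of exon, the members covered a wide range of levels. Divided by the length of all annotated exons joined, Pmvk was highest in WT at 50.1 ± 11.6 CPM per kb, followed by Hmgcs1 at 46.7 ± 14.7 and Srebf2 at 35.4 ± 2.29 CPM per kb (SD, n = 3). Pmvk and Hmgcs1 did not differ beyond their spread. Between 20 and 30 CPM per kb stood Cyp51, Npc2, Insig1, Fdps, Msmo1, Sqle and Mvd in WT, neighbours whose spreads overlapped. The lowest were Npc1 at 2.65 ± 0.352, Tm7sf2 at 1.67 ± 0.671 and Idi1 at 0.889 ± 0.149 CPM per kb (SD, n = 3). A joined exon length counts rare isoforms too, so it lowers the level of genes annotated with long minor transcripts.

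**Figure D4:**
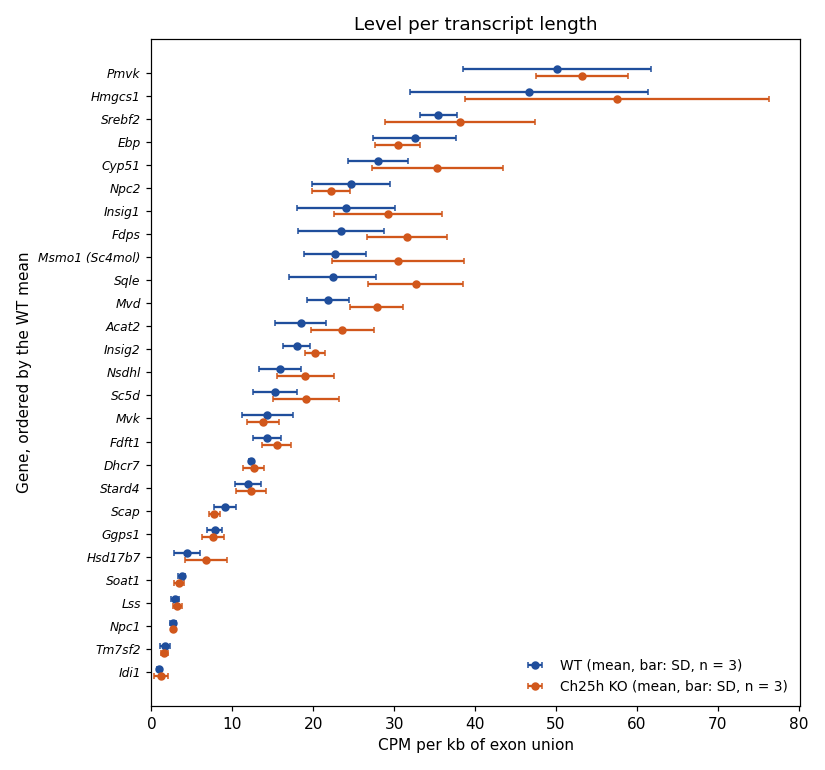
Level of each gene in CPM per kilobase of joined exons, ordered by the WT mean; points are means of 3 libraries and bars are SD, with WT in blue and Ch25h KO in orange. Pmvk and Hmgcs1 stand highest in both groups, Idi1 lowest, and the bars of the groups overlap for every gene but Mvd.

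Other genes of the pathway, from lists drawn up beside the members, also gave no call. Of 4 further synthesis genes 0 passed in either direction and 3 had a higher mean in Ch25h KO. Acat1, the mitochondrial thiolase, differed by 0.18 ± 0.13 on the log2 scale (SE; limma, adjusted p = 0.973). Of 11 further genes of SREBP processing and sterol sensing 0 passed, 8 with a higher and 3 with a lower mean and a median log2 fold change of 0.068. Aup1 differed by 0.18 ± 0.14 and Erlin1, a membrane protein of the endoplasmic reticulum, by 0.19 ± 0.19 on the log2 scale (SE; limma, adjusted p = 0.973 for each). The 14 tested genes of further uptake, transport and storage had a median of -0.017, with 7 higher, 7 lower and 0 called. Lipa, the lysosomal lipase that frees cholesterol, had the smallest p of that list and read 73.7, 97.9 and 115 CPM for WT against 114, 137 and 110 CPM for Ch25h KO (limma, adjusted p = 0.941). Lipa (chr19:34492318-34527474) lies close to the deleted gene Ch25h (chr19:34473778-34475164), and a link of its level to that locus was not tested. Scp2, a sterol carrier, read 33.6, 33.5 and 32.9 CPM for WT against 41.5, 42.3 and 34.5 CPM for Ch25h KO, without overlap (limma, adjusted p = 0.973). It was the 1 gene of the 14 so separated, where 4.38% of all genes were separated in that direction. Gramd1c, a sterol transporter, lay at 2.74 CPM or below in every library and at 0 in Ch25h KO library 1.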

How the data were processed

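The deposited table holds 1 signal column per library on the CPM scale for 13454 genes named by symbol. The submitters' processing notes list mm10 and the tools edgeR 3.26.8, HTSeq 0.9.1 and STAR 2.7.0, with no roles. The sources used here do not state the annotation, the strand setting or the rule for listing genes. Per the labels' protocols, cells were sorted as lacking CD45 and bearing CD31 and GP38, and libraries were built with SMART-Seq v4 and Nextera XT kits, which mark neither strand nor single molecules. The columns were planned as CPM; since they do not sum to one total in every library, they were treated as a scaled signal whose scaling method is not stated, and the planned test was kept. Every value of the deposited signal was a whole multiple of its column's smallest value above 0 (100% within 0.01 of a read), so reads were recovered; 1 read was worth 0.0216 to 0.0268 CPM.

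The test was limma 3.58.1 (R 4.3.3) on log2(CPM + 1), genotype as the only term, a variance trend, a floor of 1 CPM on the mean and Benjamini-Hochberg adjustment over 11980 genes. This scale understates changes of low genes. Single values also had an exact two-sided permutation test. Alternatives were pseudocounts 0.25 and 5, other filters and scalings, edgeR 4.0.16 and DESeq2 1.42.0 on recovered reads, the library number as a block, and leaving out libraries. The members and lists were chosen with earlier results of these data known, so no list was tested as a whole. Described in full were, in each role, the up to 3 members of smallest p, the 3 highest per length and the 4 control genes, and of other pathway lists up to 3 genes of smallest p; some genes of those lists are not reported here. Positions and exon lengths are from GENCODE M21 (mm10, 1-based), promoters from RefSeq on GRCm38.p6.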

Additional observations from a re-analysis of the deposited data

How the results depend on the processing

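No member passed the test under any of the 16 alternatives, and the smallest adjusted p of a member was 0.432 (limma, without WT library 1). The number of genes called over the whole table was 1, and it was 0 with a pseudocount of 0.25, 0 with edgeR, 11 with DESeq2 and 0 (without WT library 1) to 3 (without WT library 2) when 1 library was left out. Of 431 member values under alternatives, 400 kept the sign of the reported value. Without library 3 of both groups, 13 members had a higher mean instead of 20, and the sign turned for Hmgcs1 (-0.075), Idi1 (-0.26), Fdft1 (-0.058), Lss (-0.053), Nsdhl (-0.019), Insig1 (-0.013), Srebf2 (-0.16), Stard4 (-0.12) and Npc2 (0.075). With 1 library left out the log2 fold change ranged from -0.15 to 0.13 for Mvk, -0.046 to 0.28 for Pmvk, -0.22 to 0.48 for Idi1, -0.17 to 0.052 for Ggps1, -0.28 to 0.25 for Tm7sf2, -0.16 to 0.035 for Ebp, -0.040 to 0.095 for Dhcr7, -0.11 to 0.20 for Srebf2, -0.056 to 0.16 for Stard4, -0.059 to 0.13 for Npc1 and -0.24 to 0.0091 for Soat1. Tm7sf2 stood at 0.00038 with median-of-ratios scaling and 0.048 with quantile normalization. The cause of these turns was not tested. Since Ch25h KO library 3 was often highest and WT library 3 often lowest, leaving both out lowers many values by construction. The median over the members was 0.059 without Ch25h KO library 3, 0.079 without WT library 3 and up to 0.24 without WT library 2. Libraries of the same number did not deviate together (correlations of 0.24, -0.062 and -0.10 for numbers 1, 2 and 3), and with the library number as a block 1 gene and 0 members were called. Read counts of 95 to 297 limit Idi1, and those of 207 to 474 limit Tm7sf2.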

Other observations

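Enzymes that use isoprenoid diphosphates for other ends than sterols were highest in Ch25h KO library 3 in 1 gene of 10 (10.0%, against 17.2% of all genes). Of these 10, 5 had a higher and 5 a lower mean in Ch25h KO, 0 passed in limma, 0 were at an unadjusted p under 0.05, and their summed level was 421 to 464 CPM in WT and 453 to 474 CPM in Ch25h KO. Coq2, which attaches the isoprenoid tail in ubiquinone synthesis, was the member of smallest p and read 47.7, 49.0 and 48.2 CPM for WT against 62.5, 58.5 and 52.1 CPM for Ch25h KO. Coq2 was the 1 gene of the 10 whose groups did not overlap, where 4.38% of all genes were separated in that direction. Its log2 fold change was 0.25 ± 0.14 (SE; limma, adjusted p = 0.955), and here Ch25h KO library 3 was the lowest of its group.

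The 10 proliferation genes, of which 7 had a higher mean in Ch25h KO, summed to 1360, 1291 and 1185 CPM for WT against 1423, 1319 and 1286 CPM for Ch25h KO. limma called 0 of them, with 2 at an unadjusted p under 0.05, beside 5.41% of all genes. The groups did not overlap in 3, Ccnb1, Cdk1 and Aurkb, all higher in Ch25h KO, where 4.38% of all genes were so separated. Ch25h KO library 3, highest in the sterol enzymes, was the lowest Ch25h KO library in this sum. WT library 3 had the lowest sum of all 6 libraries, as it had for the synthesis enzymes. It held the lowest value of 6 of the 10 genes (60.0%, against 16.8% of all genes). Ccnb1, which encodes cyclin B1, read 27.7, 30.3 and 26.1 CPM for WT against 38.4, 35.8 and 38.2 CPM for Ch25h KO, without overlap between the groups (log2 fold change 0.41 ± 0.15 SE; limma, adjusted p = 0.836). Cdk1, its kinase partner, read 145.9, 134.7 and 121.8 CPM for WT against 187.7, 173 and 157.6 CPM for Ch25h KO, also without overlap (limma, adjusted p = 0.836).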
